A study of Mus musculus with 15 samples.

Results

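Transcript levels after 24 h with 9-cis retinoic acid were set against those after 24 h with CD3254 in a mouse pancreatic acinar cell line. The comparison takes 6 of the 15 RNA sequencing libraries of the series, chosen by the treatment in the labels: 3 from cells given 9-cis retinoic acid, a ligand of the retinoic acid receptors and of the retinoid X receptors, and 3 from cells given CD3254, an agonist of the retinoid X receptors. The question is which genes respond alike to both ligands, and which respond to one and not to the other.

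The cells are the 266-6 line, derived from a mouse pancreatic tumour and used as a model of the enzyme-secreting acinar cell. Each group spent 24 h in stripped medium before 24 h of ligand or vehicle, and 10% serum is recorded for every library. The other 9 libraries, from cells given AM580 (an agonist of the retinoic acid receptor RARα), AM580 and CD3254 together, or the vehicle DMSO, entered the same model and share its estimate of the spread. The labels give no ligand concentration, and nothing says that replicates came from separate cultures, so a p-value here reflects how far these samples scatter, and that scatter may be technical.

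Retinoic acid receptors (RAR) bind DNA as heterodimers with a retinoid X receptor (RXR), at paired hexamer motifs near genes such as Rarb, Cyp26a1 and Dhrs3. RXR is also the partner of the liver X receptors (LXR), which respond to oxysterols and drive sterol efflux and lipid synthesis, and of the peroxisome proliferator-activated receptors (PPAR), which respond to fatty acids and drive fatty acid oxidation. An RXR ligand alone can activate the LXR and PPAR heterodimers, whereas in the heterodimer with RAR it is known to do little unless the RAR side is also bound.

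Libraries stood apart in ways that the treatments do not explain. Along the leading principal component (48.3% of variance), 5 libraries, 1 of each treatment, formed a smaller set opposite the other 10. Replicate 1 of 9-cis retinoic acid and replicate 1 of CD3254 are both in the smaller set. Genes induced by low oxygen were high there: the hypoxia list summed to 10370, 1640 and 1983 CPM (read counts scaled to library size) in 9-cis retinoic acid replicates 1, 2 and 3, and to 9527, 1458 and 1445 CPM in CD3254 replicates 1, 2 and 3. Replicate 3 of 9-cis retinoic acid was shallow, with 14600962 reads on genes, against 35726626 and 46801058 in the other 9-cis retinoic acid libraries and 36144051 to 44415802 in the CD3254 libraries. It gave 63.0% of its reads to no gene and 18.5% of its gene reads to rRNA-like genes, against at most 28.55% and 2.05% in the 14 other libraries. No pair of replicates was a repeated deposit, since their counts differed far beyond sampling noise.

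The acinar label was checked against marker genes. Of 14 acinar markers, 12 had a median above 1 CPM over the 15 libraries, led by the proteases Ctrb1 at 5038 CPM and Cela1 at 1990 CPM. The amylase gene Amy2a5 was at 0 reads in all 6 libraries and the lipase gene Pnlip was at most 0.520 CPM. Amy2a5 reached 37 reads in another library of the series. These 2 genes thus had few or no counted reads, which does not show that amylase or lipase was absent. The 6 endocrine markers summed to 252 to 354 CPM with 9-cis retinoic acid and 243 to 304 CPM with CD3254, nearly all from the granule protein gene Chga, and the insulin gene Ins1 was at 0 reads in all 15 libraries. The 5 fibroblast markers summed to 192 to 366 CPM with 9-cis retinoic acid and 180 to 237 CPM with CD3254. Most of that was Pdgfrb, at 172 to 342 CPM with 9-cis retinoic acid and 155 to 215 CPM with CD3254, while the collagen gene Col1a1 was at most 1.79 CPM in these 6 libraries. The 4 immune markers summed to 4.41 to 12.6 CPM with 9-cis retinoic acid and 5.00 to 9.57 CPM with CD3254, nearly all from Cd68, while Ptprc and Cd3e were at most 0.1065 CPM in these 6 libraries. The 3 endothelial markers summed to 1.49 to 2.82 CPM with 9-cis retinoic acid and 1.59 to 3.42 CPM with CD3254, mostly Kdr and Pecam1, while Cdh5 was at most 0.0433 CPM in these 6 libraries. The part of these levels in the results was not tested. In such bulk samples, more or fewer cells of a type and more or less RNA per cell cannot be told apart.

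Rarb, which encodes RARβ, carries the textbook response element for retinoic acid in its own promoter, and the sequence is shown because Rarb was among the genes that parted the ligands most. The RefSeq promoter table (GRCm38.p6) was searched for direct repeats of receptor hexamers with 1, 2, 4 or 5 bases between them, on both strands, in the 250 bases before each start site. The consensus hexamer AGGTCA was one, and AGTTCA was taken as its first variant. The hexamer GGTTCA, the left unit of the Rarb repeat, and the related hexamer GGGTCA were also taken, in any combination. Of 25 genes named in advance, 21 had an entry, with 32 start sites, and 2 of these windows held a repeat. The genes with no entry were Angptl4, Abcg1, Lpl and Scd2. Both repeats were spaced by 5 bases, a pattern found in 0.0883% of 32851 promoters of the same length. The Rarb match was fixed in advance, since both units of its repeat were among the hexamers searched. Both units of the Cyp26a1 repeat are AGTTCA, the right unit of the Rarb repeat, so that match is not independent of the choice of hexamers. The Rarb window is chr14:16575477-16575726 on the minus strand, inside the gene's annotated span of chr14:16430839-16819156. The Cyp26a1 window is chr19:37697558-37697807 on the plus strand, and there the repeat reads on the opposite strand. Capitals mark the repeat, which lies 53 to 37 bases before the start of Rarb and 32 to 16 bases before that of Cyp26a1.
Rarb: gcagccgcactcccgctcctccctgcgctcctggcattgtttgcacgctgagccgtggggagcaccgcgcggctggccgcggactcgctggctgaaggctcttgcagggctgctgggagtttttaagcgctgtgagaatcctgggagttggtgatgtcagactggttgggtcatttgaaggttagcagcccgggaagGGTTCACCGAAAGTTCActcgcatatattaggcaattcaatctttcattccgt
Cyp26a1: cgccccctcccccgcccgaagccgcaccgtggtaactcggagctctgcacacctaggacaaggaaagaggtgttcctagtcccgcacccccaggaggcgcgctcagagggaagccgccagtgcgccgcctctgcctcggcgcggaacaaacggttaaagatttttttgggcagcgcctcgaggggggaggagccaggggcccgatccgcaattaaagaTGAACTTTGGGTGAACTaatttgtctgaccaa
Repeats spaced by 1, 2 or 4 bases were in 0.164%, 0.174% and 0.067% of promoters and in none of the windows searched for the named genes, which says only that these letters are not in these 250 bases. Cyp26a1, a retinoic acid hydroxylase, had at most 3 reads in any 9-cis retinoic acid library and 2 in any CD3254 library, so it was not tested although its window holds the repeat.

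With edgeR, few genes told the ligands apart beyond the spread between libraries. By edgeR's quasi-likelihood test on 16736 genes, with treatment as the only term, none was higher (0%) and none lower (0%) with 9-cis retinoic acid than with CD3254 at a Benjamini-Hochberg adjusted p (FDR) under 0.05. The smallest FDR was 0.711, and 172 genes were at an unadjusted p under 0.05. On the same 15 libraries, DESeq2 called 1 gene (Rarb), and limma's voom with library quality weights called 3 (Rarb and Dhrs3 higher, Abcg1 lower). With the library set as a second term, which was read from the same counts that it then helps to test, 3 genes were higher (0.0179% of those tested) and 2 were lower (0.012%). The median biological coefficient of variation was 0.193 with the set term and 0.305 without it. The number at an unadjusted p under 0.05 was then 353 higher (2.11%) and 183 lower (1.09%), together fewer than 5% of the genes tested, which would be 837. The 3 higher genes were Dhrs3, Rarb and Cyp26b1, which all belong to the retinoic acid pathway. The 2 lower genes were Angptl4, a target of PPAR, and Abcg1, a target of LXR. The count of 5 depended on the method. With the set term, DESeq2 called 15 genes, voom with quality weights 1290, and edgeR on the 6 compared libraries alone 0. Values below are from the edgeR fit on all 15 libraries with the set term unless stated.

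Dhrs3 (ENSMUSG00000066026, chr4:144892827-144928209, plus strand, mm10) encodes the enzyme that reduces retinaldehyde back to retinol and is itself induced by retinoic acid. Its level was 35.2, 17.8 and 25.5 CPM in 9-cis retinoic acid replicates 1, 2 and 3, against 10.9, 3.57 and 3.31 CPM in CD3254 replicates 1, 2 and 3. Every 9-cis retinoic acid library lay above every CD3254 library, and replicate 1 was the highest of its group under both ligands. The groups averaged 26.2 ± 8.71 CPM with 9-cis retinoic acid and 5.91 ± 4.28 CPM with CD3254 (SD, n = 3 each). Dhrs3 was 4.96-fold higher with 9-cis retinoic acid (log2 2.31 ± 0.22 SE, FDR 0.00114). It passed in each of the 6 fits that left out 1 of these libraries (log2 2.10 to 2.55). Without the set term the log2 difference was 2.15 with an FDR of 1.

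Rarb (ENSMUSG00000017491), whose promoter is printed above, was low under both treatments. It had 3.33, 2.15 and 2.82 CPM in the 9-cis retinoic acid libraries, from 123, 101 and 33 reads, against 0.663, 0.246 and 0.260 CPM in the CD3254 libraries, from 25, 11 and 12 reads. The groups did not overlap, and the lowest 9-cis retinoic acid library lay above the highest CD3254 library. The fitted difference was 7.14-fold (log2 2.84 ± 0.44 SE), and its FDR of 0.04999 is at the threshold. Of the 6 fits with 1 library left out, 1 kept the call, that without CD3254 replicate 1 (FDR 0.00829), and the FDR of the others reached 0.621.

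Cyp26b1 (ENSMUSG00000063415, chr6:84571414-84593908, minus strand) encodes a hydroxylase that clears retinoic acid. Its levels were 16.8, 3.58 and 7.36 CPM with 9-cis retinoic acid and 4.67, 1.43 and 1.13 CPM with CD3254. The groups overlapped across the library sets, since CD3254 replicate 1 lay above 9-cis retinoic acid replicate 2, but within either set each 9-cis retinoic acid library was above each CD3254 library. Cyp26b1 was 3.88-fold higher with 9-cis retinoic acid (log2 1.96 ± 0.28 SE, FDR 0.0365). The call held in 1 of 6 fits with a library left out, that without 9-cis retinoic acid replicate 2.

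**Figure D1:**
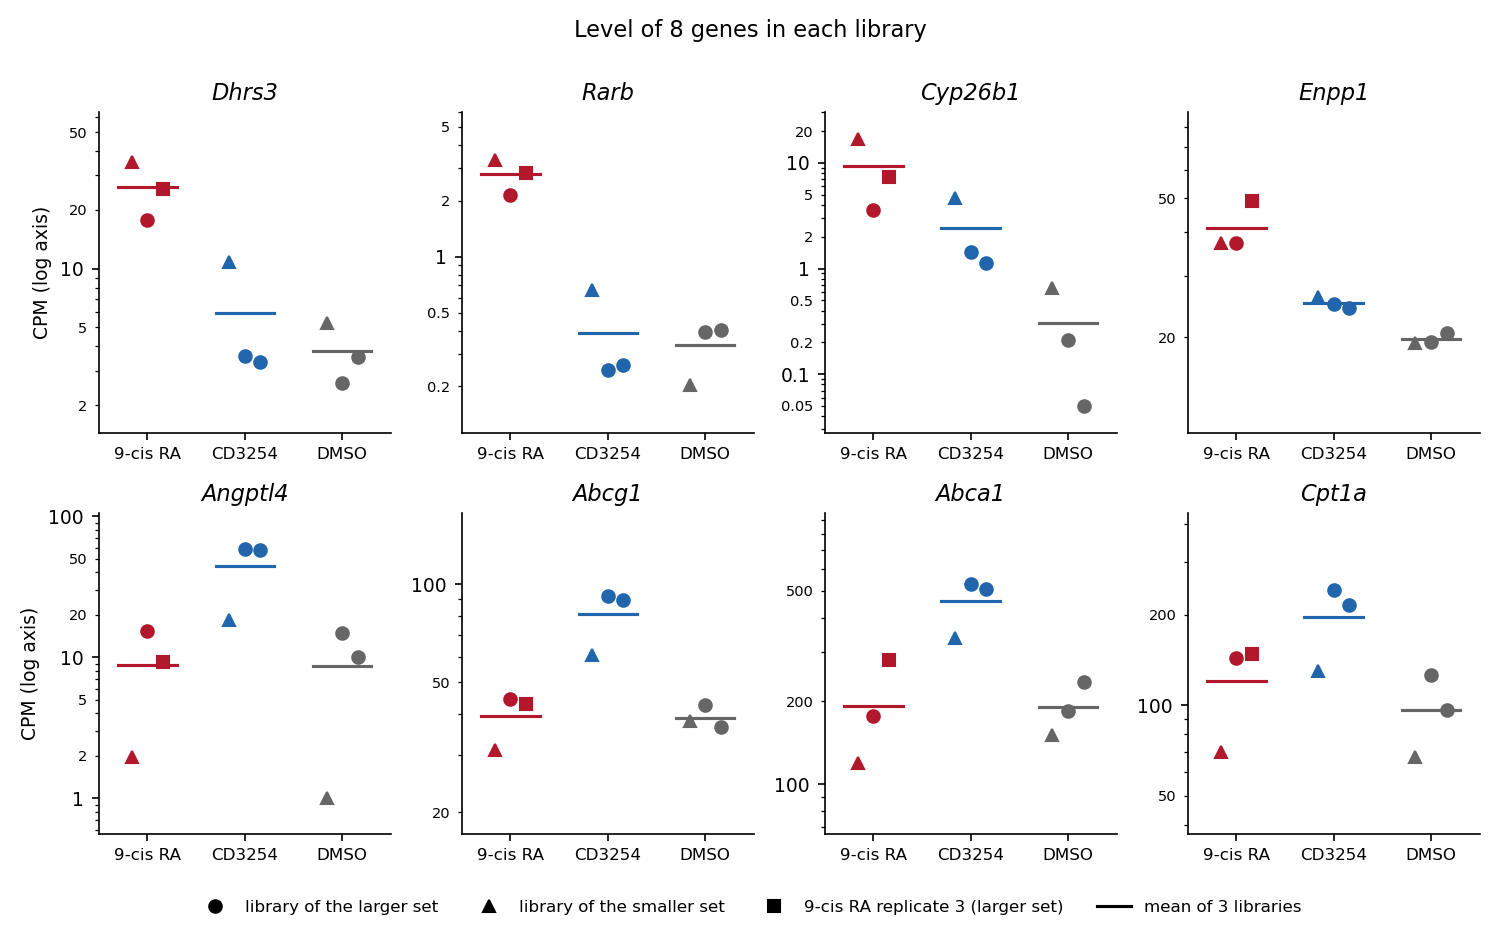
Level of 8 genes in CPM (log axis) in each library with 9-cis retinoic acid, CD3254 and DMSO; horizontal lines are means of 3 libraries, triangles mark the library of the smaller set and the square marks 9-cis retinoic acid replicate 3. Dhrs3 and Rarb are above CD3254 in every 9-cis retinoic acid library, while Angptl4, Abcg1 and Abca1 are below CD3254 in every one, with means of 8.88, 39.5 and 192 CPM, against 8.66, 39.0 and 190 CPM with DMSO.

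Of 36 known RAR targets listed, 26 were tested. The 3 genes above were higher with 9-cis retinoic acid (0.0179% of all genes) and none was lower (0.012%). At an unadjusted p under 0.05, 8 were higher, against 2.11% of all genes. In 23 of the 26 the fitted difference was above 0, against 8940 of all 16736 genes, and the median was 0.23 on the log2 scale, against 0.02 over all genes. The libraries of 5 targets did not overlap and were higher with 9-cis retinoic acid, a pattern that 3.77% of all genes showed. Dhrs3 and Rarb were among them, as was Hoxa3, a developmental transcription factor, which did not pass (log2 0.71 ± 0.26 SE) and is named for this pattern, after its values were seen. Tgm2, a transglutaminase induced by retinoic acid in several cell types, had 33.6, 14.6 and 56.5 CPM with 9-cis retinoic acid and 23.8, 7.06 and 5.76 CPM with CD3254, and is also named after its values were seen. Its 9-cis retinoic acid libraries were widely spread, highest in replicate 3, and the difference of 1.81 ± 0.57 SE did not pass (FDR 0.88). The 10 RAR targets not tested, among them Stra8, Cdx1 and 5 genes of the Hoxb cluster, had at most 5 reads in any of the 6 libraries.

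Among enzymes and carriers of vitamin A, Dhrs3 and Cyp26b1 were the genes that passed. Of 35 listed, 24 were tested, 2 were higher (0.0179% of all genes) and none was lower (0.012%). The median difference was 0.03, against 0.02 over all genes. Adh1, an alcohol dehydrogenase that can oxidize retinol, had 80.4, 111 and 97.8 CPM with 9-cis retinoic acid and 59.1, 64.6 and 67.4 CPM with CD3254. Its groups did not overlap, but the difference of 0.59 ± 0.16 SE did not pass (FDR 0.88). Rbp2, a cellular retinol-binding protein, was at 1.98 ± 0.83 CPM with 9-cis retinoic acid and 1.70 ± 0.29 CPM with CD3254, with overlapping libraries. The synthesizing enzymes Aldh1a2 and Aldh1a3 differed by 0.04 and -0.02.

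A further 14 genes had been chosen in an earlier look at these same data because they responded to the joint agonists, so their direction is not independent evidence. None passed here, 9 were higher at an unadjusted p under 0.05 (2.11% of all genes), and the median difference was 0.59. Enpp1, an ectonucleotidase of the cell surface, had 37.2, 37.3 and 48.9 CPM with 9-cis retinoic acid and 26.0, 25.0 and 24.3 CPM with CD3254. Replicates were close within each group and the groups did not overlap, yet the 1.63-fold difference (log2 0.70 ± 0.13 SE) had an FDR of 0.224. The kinase gene Pim3 had 230, 354 and 293 CPM with 9-cis retinoic acid and 152, 166 and 184 CPM with CD3254, without overlap (log2 0.80 ± 0.18 SE, FDR 0.812). Itga2, the α2 integrin subunit, had 19.7, 8.60 and 28.7 CPM with 9-cis retinoic acid and 10.9, 2.48 and 2.51 CPM with CD3254, and its groups overlapped across the library sets. Its difference of 2.07 ± 0.51 SE was 1.40 without 9-cis retinoic acid replicate 3. The flavin monooxygenase gene Fmo5 and Cd38, an enzyme that consumes NAD, differed by 0.63 ± 0.19 and 0.54 ± 0.30, with overlapping libraries. Outside the lists of receptor targets, Rab17, a small GTPase of epithelial trafficking, the mucin gene Muc1 and AI661453 were higher in every 9-cis retinoic acid library, by 0.99 ± 0.23, 1.32 ± 0.37 and 0.86 ± 0.23, and did not pass.

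Among the retinoid receptors only Rarb passed, of 5 tested, against 0.0179% of all genes called higher. Rara had 29.1, 14.8 and 19.5 CPM with 9-cis retinoic acid and 29.5, 13.0 and 12.8 CPM with CD3254, and differed by 0.26 (95% interval -0.09 to 0.62). Rarg differed by 0.44 (0.06 to 0.82) and did not pass. Rxra had 59.5, 80.8 and 119 CPM with 9-cis retinoic acid and 66.9, 75.4 and 67.9 CPM with CD3254, so the 9-cis retinoic acid libraries lay on both sides of the CD3254 range and replicate 3 was the highest. Its difference of 0.27 (-0.08 to 0.62) was 0.04 without that library. Rxrb was between 112 and 126 CPM with 9-cis retinoic acid and between 93.5 and 108 CPM with CD3254, so the libraries did not overlap, and differed by 0.24 (-0.09 to 0.58). Rxrg had at most 1 read in a 9-cis retinoic acid library and 2 in a CD3254 library. Of 13 other receptors that pair with RXR, 11 were tested and none passed, with 2 higher at an unadjusted p under 0.05 (2.11% of all genes). Those with the smallest p were Ppard (log2 0.50 ± 0.19 SE), Nr1h2, which encodes LXRβ (0.45 ± 0.21), and the thyroid hormone receptor gene Thra (0.33 ± 0.17).

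Of the sterol exporters, the best known targets of LXR, Abcg1 was lower with 9-cis retinoic acid than with CD3254, and Abca1 was lower in every library without passing. Abcg1 (ENSMUSG00000024030, chr17:31057675-31117988, plus strand), which exports cholesterol to lipoproteins, had 30.9, 44.5 and 43.0 CPM with 9-cis retinoic acid and 60.9, 92.0 and 89.9 CPM with CD3254. The groups did not overlap, and within either library set the CD3254 level was about 2 times higher. Abcg1 was 2.04-fold lower with 9-cis retinoic acid (log2 -1.03 ± 0.15 SE, FDR 0.0365). The difference stayed between -1.11 and -0.97 in the 6 fits with 1 library left out, and its FDR there was 0.0763 to 0.382, so none of them kept the call.

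Abca1, which loads cholesterol onto apolipoprotein A-I, had 120, 177 and 281 CPM in 9-cis retinoic acid replicates 1, 2 and 3, against 338, 531 and 507 CPM in CD3254 replicates 1, 2 and 3. Every 9-cis retinoic acid library was below every CD3254 library, with replicate 3 the nearest. The difference was 2.46-fold (log2 -1.30 ± 0.29 SE) and did not pass (FDR 0.812). It passed, at an FDR of 0.0326, when AM580 replicate 1 was left out of the shared spread, where Abca1 had 55.9 CPM against 249 and 234 CPM in the other AM580 libraries. Without both that library and 9-cis retinoic acid replicate 3 it was -1.53 ± 0.18 SE (FDR 0.00685). Both fits were chosen after the data were seen. On all 15 libraries, DESeq2 with the set term also called Abca1 (log2 -1.30, FDR 0.0187). With the set term, Abca1 was called in 4 of the 18 settings run.

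Of 29 LXR targets, 26 were tested, Abcg1 was lower (0.012% of all genes) and none was higher (0.0179%). At an unadjusted p under 0.05, 10 were lower (1.09% of all genes), against none higher. The fitted difference was below 0 in 17 of 26, against 7794 of all 16736 genes. The median was -0.25, against 0.02 over all genes. The libraries of 7 did not overlap and were lower with 9-cis retinoic acid, a pattern seen in 4.52% of all genes. Besides Abcg1 and Abca1 these were Acsl3, Lpl, Abcg8, Lpcat3 and Srebf1. Acsl3, an acyl-CoA synthetase, had 65.2, 71.3 and 42.3 CPM with 9-cis retinoic acid and 103, 138 and 148 CPM with CD3254 (log2 -1.08 ± 0.24 SE, FDR 0.857). Lpl, lipoprotein lipase, had 8.43, 9.26 and 4.11 CPM with 9-cis retinoic acid and 12.7, 26.4 and 30.1 CPM with CD3254 (log2 -1.51 ± 0.35 SE, FDR 0.88). In both genes 9-cis retinoic acid replicate 3 was the lowest library.

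Lipid synthesis genes of the LXR list had smaller differences and did not pass. Srebf1, the transcription factor of fatty acid synthesis, had 460, 438 and 522 CPM with 9-cis retinoic acid and 528, 710 and 716 CPM with CD3254 (log2 -0.47 ± 0.20 SE, FDR 0.88). The libraries were apart by little, since 9-cis retinoic acid replicate 3 was just below CD3254 replicate 1. The desaturase gene Scd2 had 1655, 901 and 1310 CPM with 9-cis retinoic acid and 2550, 1683 and 1608 CPM with CD3254, overlapping across sets, and differed by -0.59 ± 0.17 SE. Fasn, fatty acid synthase, differed by 0.00 and Apoe, an apolipoprotein, by 0.03. The sterol exporter Abcg5 was under 1.5 CPM with 9-cis retinoic acid and reached 3.51 CPM with CD3254, a difference of -1.71 ± 0.50 SE. Gramd1b, a sterol transfer protein outside the list, had 49.9, 45.5 and 59.8 CPM with 9-cis retinoic acid and 75.5, 77.7 and 80.2 CPM with CD3254 (log2 -0.59 ± 0.16 SE, FDR 0.88).

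Angptl4 (ENSMUSG00000002289, chr17:33773750-33781830, minus strand), an inhibitor of lipoprotein lipase and a target of PPAR, was lower with 9-cis retinoic acid. Its levels were 1.95, 15.4 and 9.24 CPM in 9-cis retinoic acid replicates 1, 2 and 3, against 18.5, 58.5 and 57.3 CPM in CD3254 replicates 1, 2 and 3. The libraries did not overlap, but 9-cis retinoic acid replicate 2 of the larger set came close to CD3254 replicate 1 of the smaller set. Angptl4 was 6.07-fold lower with 9-cis retinoic acid (log2 -2.60 ± 0.34 SE, FDR 0.0197). It passed in 4 of the 6 fits with 1 library left out, and not without 9-cis retinoic acid replicate 1 or 3. Without the set term the difference was -2.33 with an FDR of 1.

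Of 40 PPAR targets, 34 were tested, Angptl4 was lower (0.012% of all genes) and none was higher (0.0179%). At an unadjusted p under 0.05, 10 were lower (1.09% of all genes), against none higher. The median difference was -0.10, against 0.02 over all genes, with 22 below 0, against 7794 of all 16736 genes. The libraries of 5 targets were apart and lower (4.52% of all genes), and those of 1, the triglyceride lipase gene Pnpla2, apart and higher (3.77% of all genes). Cpt1a, the gate of fatty acid entry into mitochondria, had 69.8, 143 and 148 CPM with 9-cis retinoic acid and 130, 242 and 216 CPM with CD3254. The groups overlapped across the sets and not within them, and the difference of -0.73 ± 0.13 SE had an FDR of 0.223. Acot1, an acyl-CoA thioesterase, had 7.51, 6.05 and 3.68 CPM with 9-cis retinoic acid and 13.2, 12.6 and 13.6 CPM with CD3254 (log2 -1.22 ± 0.28 SE, FDR 0.857); its near-identical neighbour Acot2 may share reads with it. Creb3l3, a transcription factor of lipid metabolism, and Slc25a20, the carnitine carrier, were lower in every 9-cis retinoic acid library with differences of -0.70 ± 0.19 and -0.50 ± 0.14, and did not pass. Pdk4, a kinase that restrains glucose oxidation, rested on 3 to 20 reads with 9-cis retinoic acid and 27 to 59 with CD3254 and differed by -1.57 ± 0.51 SE. The oxidation enzyme genes Acadm and Hadha differed by -0.10 ± 0.15 and 0.03 ± 0.13. Of 20 targets of other RXR partners, such as the bile acid and thyroid hormone receptors, 10 were tested and none passed, with 1 lower at an unadjusted p under 0.05, against 1.09% of all genes (Klf9, log2 -0.56 ± 0.22 SE).

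**Figure D2:**
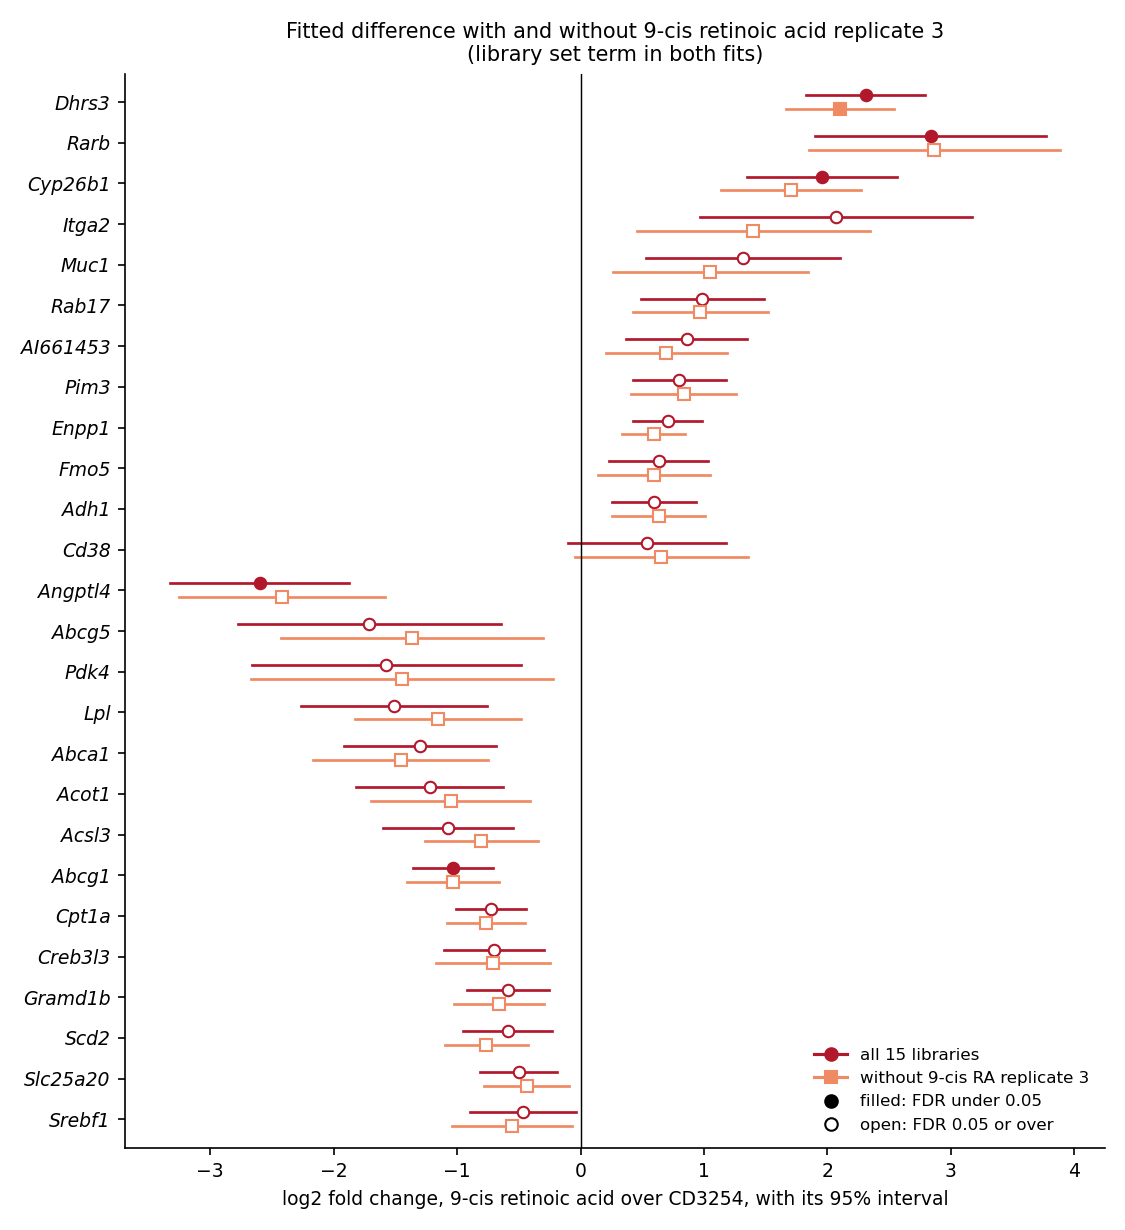
Fitted log2 fold change of 9-cis retinoic acid over CD3254 with its 95% interval for 26 named genes, from all 15 libraries and without 9-cis retinoic acid replicate 3; filled symbols have an FDR under 0.05. Leaving that library out moved Itga2 from 2.07 to 1.40 and Lpl from -1.51 to -1.16, and left Dhrs3 as the one gene past the threshold.

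Leaving out 9-cis retinoic acid replicate 3 changed the calls more than the values. With the set term, 1 gene then passed of 17069 tested, Dhrs3 (log2 2.10 ± 0.20 SE, FDR 0.00259), against 5 with that library. Rarb was at 2.87, Cyp26b1 at 1.71, Angptl4 at -2.42 and Abcg1 at -1.03 without it, each with an FDR of 0.178. Leaving out AM580 replicate 1 as well, which had the lowest quality weight of all libraries (0.081), gave 7 genes: the same 5 and, on the lower side, Abca1 and Gramd1b. Each other library also moved the count: it was 1 without 9-cis retinoic acid replicate 1 and 3 without its replicate 2, and 3, 2 and 2 without CD3254 replicates 1, 2 and 3. Dhrs3 was called in each of these 6 fits.

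The same genes were read within each library set. In the larger set alone, with 2 libraries of each ligand, Dhrs3 (log2 2.64, FDR 0.00745) and Rarb (3.26, FDR 0.0109) were higher and Angptl4 (-2.20, FDR 0.0432) was lower with 9-cis retinoic acid. Abcg1 was at -1.05 there and Cyp26b1 at 2.02, with FDRs of 0.398 and 0.499. In the smaller set, 1 library of each ligand gives a difference with no replicate check: it was 1.70 for Dhrs3, 2.33 for Rarb, 1.85 for Cyp26b1, -3.24 for Angptl4, -0.98 for Abcg1 and -1.50 for Abca1. All 6 genes had the same direction in both sets. For Dhrs3, Rarb, Angptl4, Abcg1 and Abca1 this follows from the groups not overlapping. Cyp26b1 was described above as apart within either set, so the agreement is no separate check. Without 9-cis retinoic acid replicate 3 the larger set compared 1 library with 2, the lone one being assumed to vary like the other groups, and Dhrs3 (2.36) and Rarb (3.07) still passed.

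**Figure D3:**
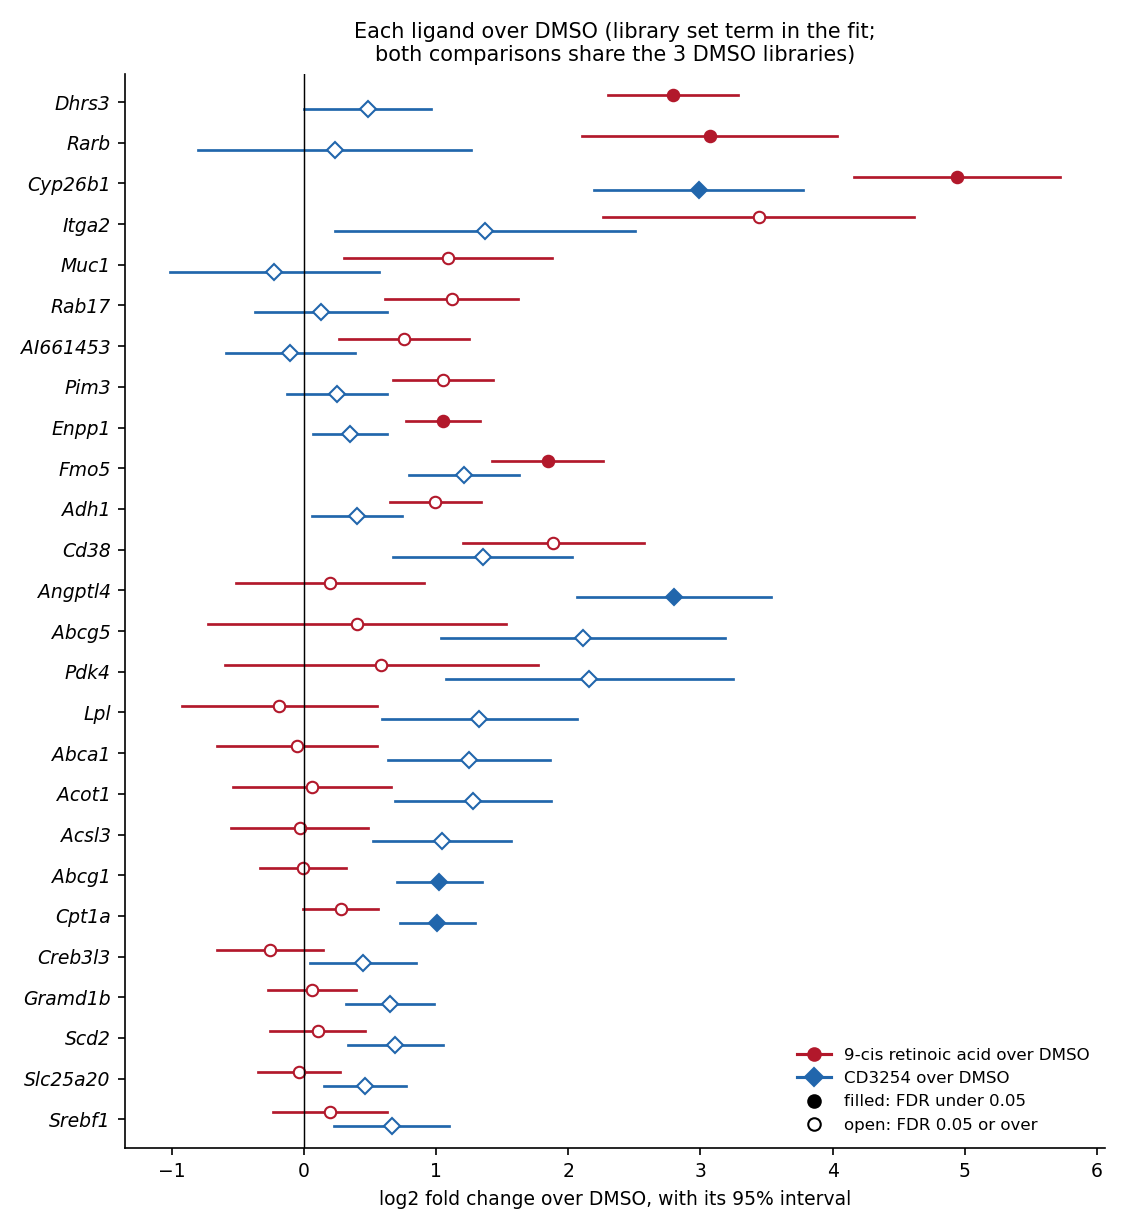
Fitted log2 fold change over DMSO with its 95% interval for the same 26 genes, with 9-cis retinoic acid above and CD3254 below in each row; filled symbols have an FDR under 0.05. For the lipid genes from Angptl4 down, the 9-cis retinoic acid interval covers 0 in each row. The CD3254 value is higher there, which follows from their negative difference between the ligands in the same fit.

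The levels against vehicle stand side by side here, since both comparisons share the 3 DMSO libraries. They also use the ligand libraries and the fit that compared the ligands, so which ligand stands higher is no separate check. With the set term, 5 genes rose with 9-cis retinoic acid over DMSO (0.0299%) and 4 with CD3254 over DMSO (0.0239%), and none fell with either (0%). Without the set term edgeR called none in either comparison, with 243 and 76 genes at an unadjusted p under 0.05. Dhrs3 rose with 9-cis retinoic acid (log2 2.79 ± 0.23 SE, FDR 7.47e-05) and was at 0.48 ± 0.22 with CD3254 (FDR 1). Rarb rose with 9-cis retinoic acid (3.07 ± 0.45, FDR 0.0296) and was at 0.23 ± 0.48 with CD3254. Cyp26b1 rose with both, by 4.94 ± 0.36 with 9-cis retinoic acid (FDR 3.4e-05) and by 2.99 ± 0.37 with CD3254 (FDR 0.0105), from 26, 7 and 2 reads in the DMSO libraries. Fmo5 and Enpp1 rose with 9-cis retinoic acid (1.85 ± 0.20 and 1.05 ± 0.13) and were at 1.21 ± 0.19 and 0.35 ± 0.13 with CD3254.

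Angptl4, Abcg1 and Cpt1a rose with CD3254 and did not pass with 9-cis retinoic acid. Angptl4 was at 0.20 with 9-cis retinoic acid (95% interval -0.51 to 0.91) and rose by 2.80 ± 0.34 with CD3254 (FDR 0.0105). Abcg1 was at -0.01 with 9-cis retinoic acid (-0.33 to 0.32) and rose by 1.03 ± 0.15 with CD3254 (FDR 0.0382). Cpt1a was at 0.28 with 9-cis retinoic acid (-0.00 to 0.56) and rose by 1.01 ± 0.13 with CD3254 (FDR 0.0146). For Abca1 the values were -0.05 (-0.66 to 0.56) and 1.25 ± 0.29 SE, with FDRs of 0.993 and 0.994. The intervals bound any response of these genes to 9-cis retinoic acid at the unstated concentration used, and do not show that there was none.

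For orientation, Angptl4 averaged 8.88 ± 6.75 CPM with 9-cis retinoic acid, 44.8 ± 22.8 CPM with CD3254, 42.0 ± 26.2 CPM with AM580 and CD3254 together, 7.68 ± 5.77 CPM with AM580 and 8.66 ± 7.05 CPM with DMSO (SD, n = 3 each). Dhrs3 averaged 26.2 ± 8.71 CPM with 9-cis retinoic acid, 5.91 ± 4.28 CPM with CD3254, 34.8 ± 16.8 CPM with the joint agonists, 23.3 ± 15.1 CPM with AM580 and 3.79 ± 1.34 CPM with DMSO. In Dhrs3 the 9-cis retinoic acid mean was nearer to that of AM580 than to that of CD3254, and both were above that of DMSO. In Angptl4 the means with 9-cis retinoic acid and with AM580 were both close to that of DMSO. Cyp26b1 reached 71.8 ± 48.3 CPM with the joint agonists, above its 9.24 ± 6.80 CPM with 9-cis retinoic acid and 2.41 ± 1.96 CPM with CD3254. These differences from the AM580 groups were not tested here.

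**Figure D4:**
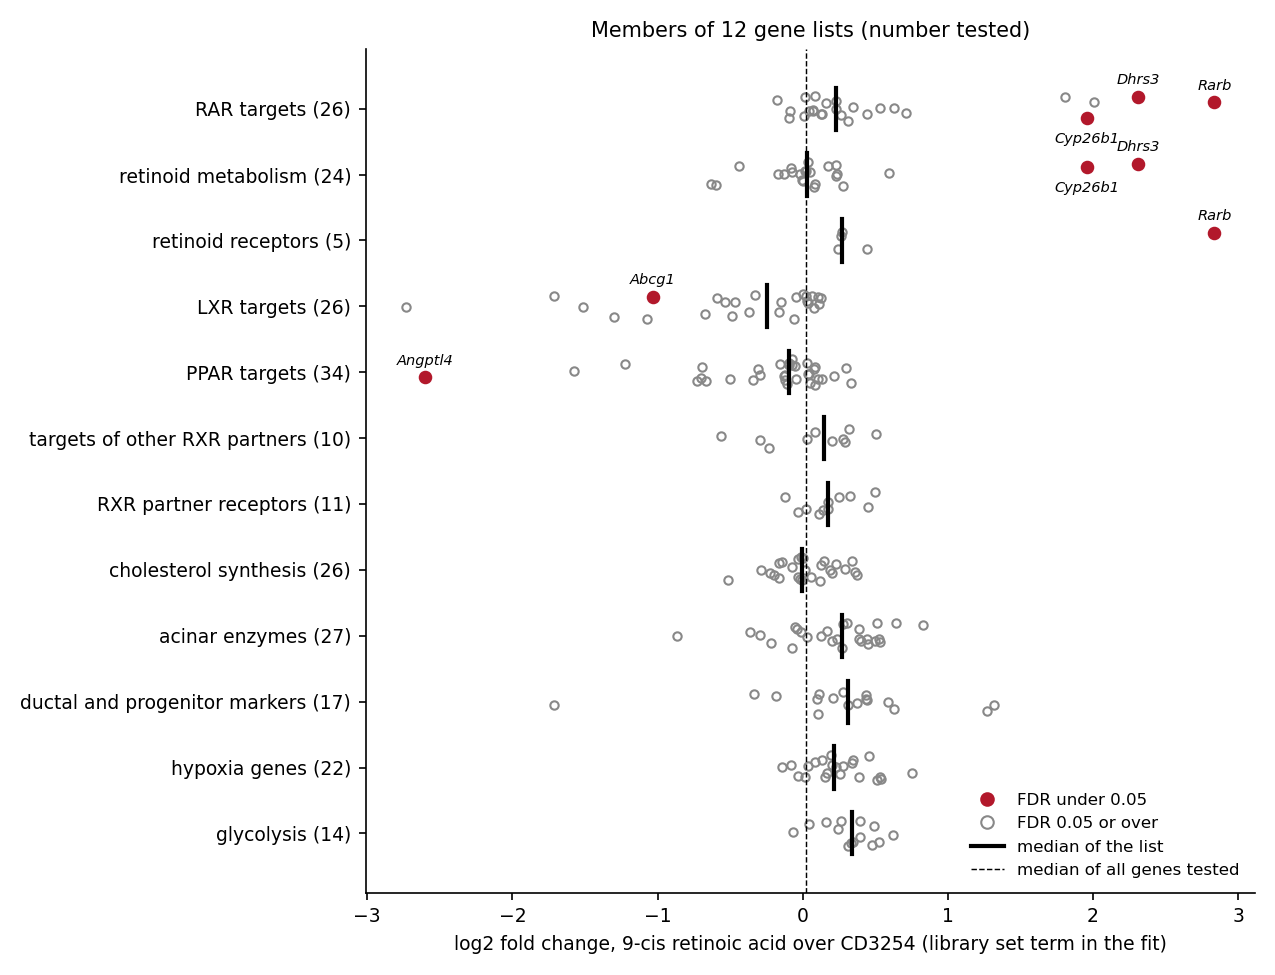
Fitted log2 fold change of 9-cis retinoic acid over CD3254 for each tested member of 12 gene lists, with the list median as a bar and the median of all genes as a dashed line; filled points have an FDR under 0.05. The 3 called RAR targets stand to the right of the median of their list, and Abcg1 and Angptl4 to the left of the medians of theirs.

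Acinar and ductal genes gave no call. Of 27 acinar enzyme genes tested, 1 was higher at an unadjusted p under 0.05 (2.11% of all genes), the carboxypeptidase gene Cpa1, with 483, 605 and 846 CPM in the 9-cis retinoic acid libraries and 405, 439 and 393 CPM in the CD3254 libraries (log2 0.64 ± 0.28 SE). The list's median was 0.27, with 19 members above 0, against 53.42% of all genes. The libraries of 4 members, Cpa1, Cela3b, Pnliprp1 and Clps, were apart and higher, against 3.77% of all genes. The 12 acinar transcription factors had a median of 0.15, led by Bhlha15 at 0.34 ± 0.13 SE. Of 17 ductal and progenitor markers, 4 (Krt18, Hes1 and Muc1 among them) were higher and 1 lower at an unadjusted p under 0.05, against 2.11% and 1.09% of all genes. The gene on the lower side was Cftr, a chloride channel, at 0.149 to 0.257 CPM with 9-cis retinoic acid and 0.541 to 0.871 CPM with CD3254. Hes1, a Notch target, had a difference of 0.37 ± 0.14 SE. The median of these 17 markers was 0.31, with 14 above 0, against 53.42% of all genes. Libraries of 5 markers were apart and higher and those of 1 apart and lower, against 3.77% and 4.52% of all genes.

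Genes of low oxygen and glycolysis gave no call either, although most fitted differences lay above 0. Of 22 hypoxia genes, none passed, 5 were higher at an unadjusted p under 0.05 (2.11% of all genes) and 19 were above 0 (53.42% of all genes), with a median of 0.22. Car9, Ndrg1 and Slc2a1 led, at 0.54 ± 0.17, 0.53 ± 0.18 and 0.76 ± 0.26. The 14 glycolysis genes had a median of 0.34 and summed to 14240, 3904 and 4640 CPM with 9-cis retinoic acid and 12840, 3089 and 2991 CPM with CD3254. In each library set the 9-cis retinoic acid sum was the higher one, and its part in the differences above was not tested.

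**Figure D5:**
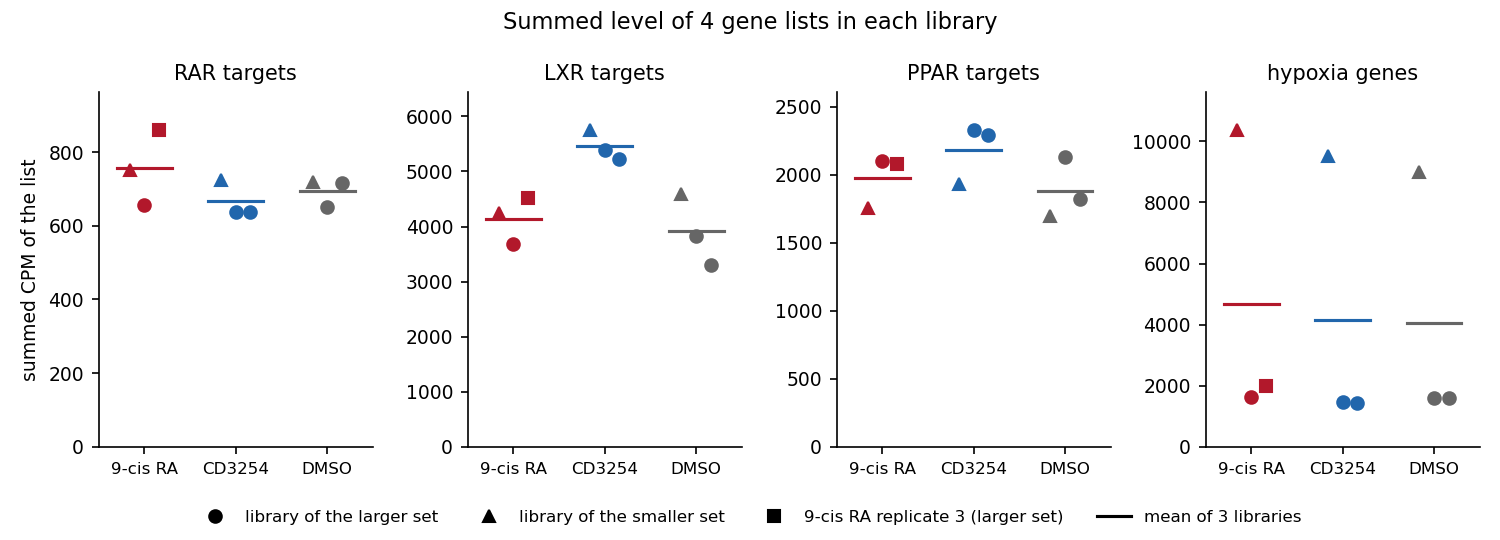
Summed CPM of the RAR, LXR, PPAR and hypoxia lists in each library with 9-cis retinoic acid, CD3254 and DMSO, with symbols as in the plot of gene levels; horizontal lines are means. The LXR sum is at most 4509 CPM in the 9-cis retinoic acid libraries and at least 5223 CPM in the CD3254 libraries, while the hypoxia sum follows the library set.

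Summed over the list, LXR targets held 4254, 3674 and 4509 CPM in the 9-cis retinoic acid libraries, 5751, 5384 and 5223 CPM in the CD3254 libraries and 4594, 3833 and 3306 CPM in the DMSO libraries. The 9-cis retinoic acid sums lay below all CD3254 sums and within or near the DMSO range. Scd2 alone gave 901 to 1655 CPM of it with 9-cis retinoic acid and 1608 to 2550 CPM with CD3254. RAR targets summed to 752, 655 and 860 CPM with 9-cis retinoic acid, against 725, 638 and 638 CPM with CD3254, and these ranges overlapped.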

How the data were processed

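The authors deposited raw read counts for Ensembl genes, made with HISAT2 2.2.1, SAMtools 1.18 and HTSeq on mm10, per the submitters' processing notes. Strand setting and annotation release: not given in the sources used here; overlapping genes may share reads. Of 43432 identifiers, 42462 matched a symbol in GENCODE M21, whose coordinates are used. The counter's 5 rows without a gene were left out.

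Counts were tested with edgeR 4.0.16 (filterByExpr, TMM, robust quasi-likelihood F test, two-sided) in R 4.3.3 on all 15 libraries, by treatment alone (10 residual degrees of freedom) and with the library set as a term (9). Sets were split at 0 on the leading principal component of log2 CPM values (prior count 2). P-values were adjusted over all genes by Benjamini-Hochberg at 0.05. CPM use TMM library sizes, SEs come from the F statistic, and the steps were tested on simulated data. Alternatives used DESeq2 1.42.0 and limma 3.58.1.

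Named genes are those past the threshold at 1 CPM or more without overlap, filled to 8 each way by p (6 without the set term), 25 genes listed in advance, and per list the called members or the 3 smallest p. Marker genes, untested genes, Hoxa3, Tgm2, Aldh1a2, Aldh1a3, Fasn, Apoe, Abcg8, Lpcat3, Acot2, Acadm, Hadha, Pnpla2, Krt18 and Pnliprp1 were named outside this rule, after their values were seen. Some members of the lists are not reported here by name. The genes, lists and tests were chosen with earlier results of these data known.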

Additional observations from a re-analysis of the deposited data

Results flagged for a closer look

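Replicate 3 of 9-cis retinoic acid gave 62.99% of its reads to no gene, against 18.06% to 23.05% in the DMSO libraries and at most 28.55% in any other library. The same library put 18.47% of its gene reads on rRNA-like genes (Gm42418, Lars2, Gm23935, Gm15564 and Gm26917, chosen after values were seen), against 0.031% to 0.323% with DMSO. Reads given to no gene did not enter the comparison, whereas the rRNA-like genes were among the genes counted. Both values lie above the control libraries. Their part in the differences between the ligands was not tested beyond the fits without that library and those without rRNA-like genes.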

How the results depend on the processing

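Among the genes named by the rule above, no called difference between 9-cis retinoic acid and CD3254 changed direction under any setting run. Other called genes were not checked for direction across settings. With treatment alone the count of 0 called genes was also found with DESeq2-type size factors, no count filter, the 6 libraries alone, rRNA-like genes taken out and each library left out, and became 1 with DESeq2 and 3 with voom quality weights. With the set term the count of 5 was 4 with DESeq2-type size factors, 4 without a count filter and 4 without rRNA-like genes, but 15 with DESeq2 (7 higher, 8 lower), 1290 with voom quality weights, 0 with the 6 libraries alone, 3 in the larger set, 2 in the larger set without 9-cis retinoic acid replicate 3, and 1 to 3 with 1 library left out. The 6-library fit still had 1251 genes at an unadjusted p under 0.05. Causes were not tested. With the replicate number as a block, 2 genes passed with the set term (Dhrs3 and Angptl4) and 0 without it. Same-numbered libraries of the ligands deviated together with correlations of 0.80, 0.56 and 0.085, so the numbers were not taken as a pairing. Depth limits Rarb, Pdk4 and Abcg5, which rest on 33, 3 and 4 reads in 9-cis retinoic acid replicate 3.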

Other observations

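Other gene groups gave no call between 9-cis retinoic acid and CD3254. Of 26 cholesterol synthesis genes, 1 was higher at an unadjusted p under 0.05 (Mvk, log2 0.38 ± 0.17 SE), against 2.11% of all genes, and the median was 0.00. The 20 receptor cofactors had a median of 0.00 and none at an unadjusted p under 0.05. The 19 genes of the unfolded protein response had a median of 0.05, also with none. Among 18 interferon genes the viral RNA sensor Ifih1 had 4.74, 5.03 and 3.08 CPM with 9-cis retinoic acid and 6.55, 6.70 and 7.56 CPM with CD3254, without overlap (log2 -0.66 ± 0.22 SE, FDR 0.88), and the list's median was -0.07.

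Of 21 cell cycle genes, Ccnd1 (cyclin D1) was at 1.06 ± 0.40 SE with overlapping libraries, and the list's median was 0.04. The proliferation marker Mki67 had 760, 633 and 301 CPM with 9-cis retinoic acid and 886, 862 and 882 CPM with CD3254, lowest in the shallow replicate 3 of 9-cis retinoic acid. The 6 endocrine and 6 fibroblast markers tested had medians of -0.30 and 0.04 with 1 gene each (Isl1 and Col1a2) lower at an unadjusted p under 0.05, against 1.09% of all genes, and the 4 immune and endothelial markers a median of 0.16 with none.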
